A study of Sus scrofa with 9 samples.

Results

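The DLX genes are a family of homeobox transcription factors, here taken as the rows with the symbols DLX1 to DLX6 in a table of transcript levels from developing molars of the miniature pig. Of these 6 symbols, 5 had a row among the 34580 genes and transcripts listed. DLX1, DLX2, DLX3 and DLX4 were above 0 and passed the filter on low values, DLX5 was listed at 0 in every library, and DLX6 was not analysed here. DLX1 was lower and DLX3 and DLX4 were higher at E50 than at E40, whereas DLX2 stayed between 3.84 and 7.75 in all 9 libraries. The E40 and E50 libraries also differed in sequencing depth, which cannot be told apart from stage. Of all genes tested, 38.6% were called different between them. Levels are FPKM, sequenced fragments scaled to a gene's exon length and to the library's mapped fragments, so that levels of different genes are compared per length.

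DLX genes lie in mammalian genomes as linked, converging pairs, DLX1 with DLX2, DLX3 with DLX4 and DLX5 with DLX6, and the members of a pair often share enhancers and expression domains. In the NCBI RefSeq annotation of Sscrofa11.1, the members of each pair were direct neighbours, on pig chromosomes 15, 12 and 9. By protein sequence the family falls instead into a group of DLX2, DLX3 and DLX5 and a group of DLX1, DLX4 and DLX6, so that each pair holds a member of both. In the branchial arches DLX1 and DLX2 are active in the upper and the lower jaw, and DLX5 and DLX6 mark the lower jaw downstream of endothelin signalling. Mice that lack Dlx1 and Dlx2 lose their upper molars, and DLX3 is mutated in tricho-dento-osseous syndrome, in which hair, enamel and bone are affected.

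Total RNA was sequenced from germs of a mandibular deciduous molar (Dm3), dissected from fetuses of anesthetized miniature pig sows at embryonic day 40 (E40, cap stage), day 50 (E50, early bell stage) and day 60 (E60, late bell stage). There were 3 libraries per stage, and all stages shared the same anesthetics (ketamine and xylazine), dissection and library kit, with no further treatment or genotype named. Whether the libraries of a stage came from separate fetuses or pools is not given in the sources used here, so that p-values measure the spread between libraries, which may be technical. A whole germ holds enamel epithelium, dental papilla and dental sac, and in such bulk samples fewer cells of a type and less RNA per cell cannot be told apart.

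The libraries fell into sets by depth. Since the values of each gene are multiples of what 1 read is worth, whole reads could be recovered, and they totalled between 938527 and 1760356 in the E40 libraries and E60 libraries 2 and 3 (the shallow set) and between 14362194 and 16674693 in the E50 libraries and E60 library 1 (the deep set). Across the 19618 genes tested, Pearson's r of log2 levels between libraries was 0.743 to 0.838 within the shallow set, 0.959 to 0.983 within the deep set and 0.301 to 0.609 between the sets. E40 and E50 therefore differ in stage and in set, and these cannot be told apart. The same holds for E50 against E60 libraries 2 and 3. E60 library 1 stood with the E50 libraries in depth and overall profile, but its AMBN level, for the enamel matrix protein ameloblastin, was 10410 FPKM, against 2.95 to 4.61 at E50 and 2181 and 5371 in the other E60 libraries. The DLX calls and the test of the DLX1/DLX2 ratio are given with and without this library, and the calls also within a set where the design allows. For other genes some results are given over 9 libraries only.

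DLX1, a factor of early jaw and tooth mesenchyme, was the most abundant member at E40. Its level was 55.6, 53.1 and 38.6 FPKM in the E40 libraries, 14.5, 8.84 and 10.6 at E50, and 5.20, 31.0 and 30.8 in E60 libraries 1, 2 and 3. Every E40 library was above every other library, and the E60 libraries lay on both sides of the E50 range. The stage means were 49.1 ± 9.15, 11.3 ± 2.92 and 22.3 ± 14.8 FPKM (SD, n = 3), and the E60 mean without library 1 was 30.9 ± 0.115 (SD, n = 2). Behind these values stand between 82 and 409 reads per library. An antisense transcript overlaps DLX1 in other mammals, and whether the authors' counting used the strand is not given in the sources used here, so that reads of both strands may be joined in the DLX1 value.

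DLX2, which acts together with DLX1 in neural crest derived mesenchyme and is also made in dental epithelium, had no such course. Its level was 3.91, 7.75 and 5.23 FPKM at E40, 7.50, 5.08 and 4.79 at E50, and 4.80, 3.84 and 7.64 at E60. The ranges of the 3 stages overlapped, with means of 5.63 ± 1.95, 5.79 ± 1.49 and 5.42 ± 1.98 FPKM (SD, n = 3). The shallow libraries held only 9 to 33 DLX2 reads and the deep ones 169 to 270, so that modest differences were not detectable at this depth.

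DLX3, a factor of hair, enamel and bone formation, was low at E40 and the most abundant member at E50. Its level was 1.78, 3.58 and 3.47 FPKM at E40, 22.2, 21.4 and 16.4 at E50, and 27.3, 7.26 and 12.3 at E60. All E50 and E60 libraries were above all E40 libraries, and the E60 range enclosed the E50 range. The means were 2.94 ± 1.01, 20.0 ± 3.16 and 15.6 ± 10.4 FPKM (SD, n = 3), with 4 to 11 reads per library at E40 and 564 to 855 at E50.

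DLX4, the linked partner of DLX3, had the same order of stages. It stood at 1.42, 0.633 and 1.51 FPKM at E40, at 9.40, 8.93 and 8.34 at E50, and at 10.1, 3.37 and 2.27 at E60. The E40 libraries were again below all others, and the E60 range enclosed that of E50. The E40 values rest on 2, 1 and 3 reads, at or under the floor of 3 reads, so that the size of any change from E40 is loosely set. The means were 1.19 ± 0.481, 8.89 ± 0.532 and 5.26 ± 4.27 FPKM (SD, n = 3).

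**Figure D1:**
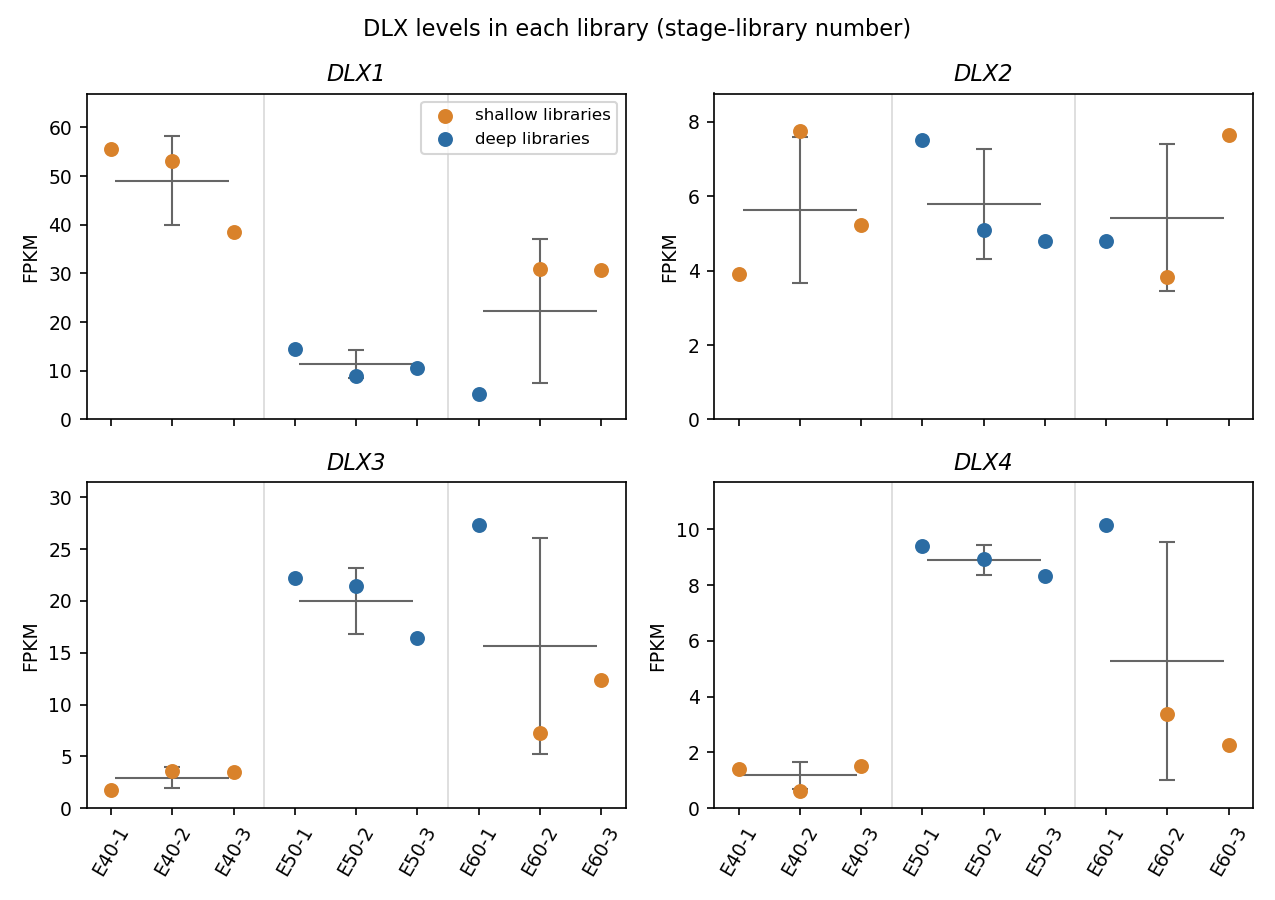
Level of each DLX gene (FPKM, linear axis from 0) in the 3 libraries of E40, E50 and E60, coloured by depth set (shallow, 938527 to 1760356 reads; deep, 14362194 to 16674693 reads), with the stage mean and SD as lines. DLX1 is highest at E40, DLX3 and DLX4 are lowest at E40, DLX2 overlaps between stages, and E60 library 1 lies apart from E60 libraries 2 and 3 for DLX1, DLX3 and DLX4.

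The plot of levels by library shows that for DLX1, DLX3 and DLX4 the spread at E60 came from library 1, which had the lowest DLX1 level and the highest DLX3 and DLX4 levels of all 9 libraries. For DLX2 that library lay between the other E60 libraries.

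DLX5, which with DLX6 is the lower jaw member of the family, was listed at 0 FPKM in all 9 libraries. HPRT1, a gene that every cell uses, was also listed at 0 in all 9 libraries, as were 5617 genes in all, so that a 0 in this table can be a failed estimate and is no measure of DLX5. The DLX5 and DLX6 pair could therefore not be compared with the others.

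The summed level of DLX1 to DLX4 lay between 40.2 and 65.0 FPKM in the 9 libraries, and its make-up differed between them. DLX1 supplied 88.7, 81.6 and 79.1% of this sum in the E40 libraries, 27.1, 20.0 and 26.5% at E50, and 11.0, 68.1 and 58.1% in E60 libraries 1, 2 and 3. DLX3 supplied 2.84, 5.50 and 7.11% at E40, 41.4, 48.4 and 40.8% at E50, and 57.6, 16.0 and 23.3% at E60. At E40 the order was DLX1, DLX2, DLX3, DLX4 in 3 of 3 libraries. DLX3 led in the 4 deep libraries, with DLX2 last. In E60 libraries 2 and 3 DLX1 led again, but DLX3 stood above DLX2, which at E40 it did not.

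**Figure D2:**
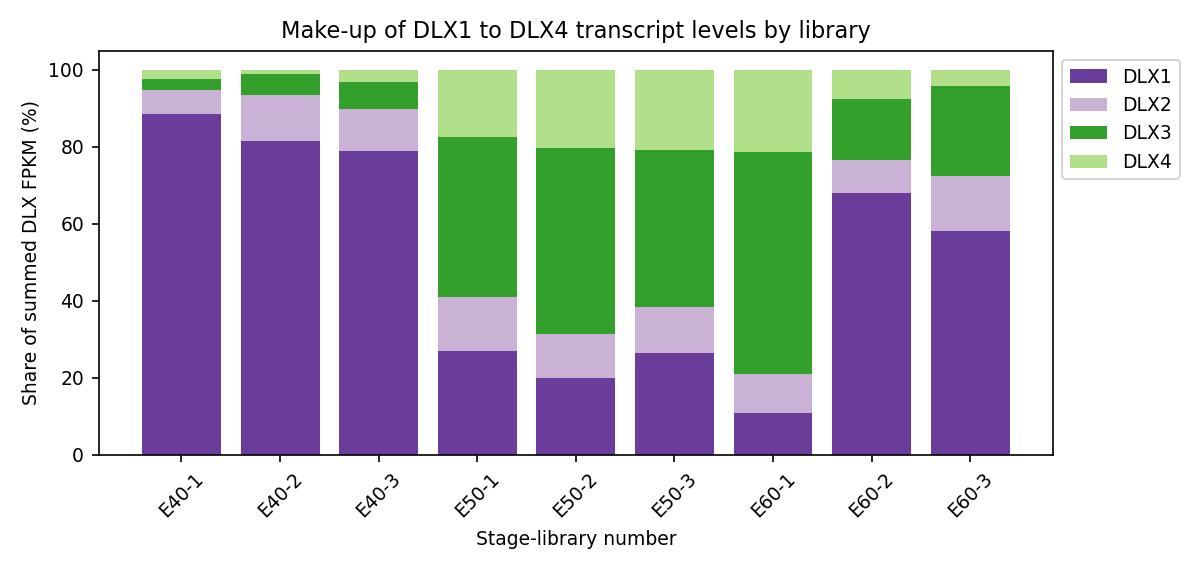
Share of the summed FPKM of DLX1 to DLX4 (percent, linear axis) held by each gene in each library. DLX1 holds 79.1 to 88.7% at E40 and 20.0 to 27.1% at E50, and E60 libraries 2 and 3 lie between, while in E60 library 1 DLX3 holds 57.6%.

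The plot of shares makes clear that the DLX make-up of E60 libraries 2 and 3 matched neither E40 nor E50, with DLX3 shares above all E40 libraries and below all E50 libraries.

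From the cap to the early bell stage, 3 of the 4 members measured passed the test, DLX1 downward and DLX3 and DLX4 upward. The test was limma on log2(FPKM + 0.1) over the 19618 genes that reached an FPKM of 1 in 2 or more libraries. A gene was called where its Benjamini-Hochberg adjusted p was under 0.05 and its level changed by 1 or more on the log2 scale, up or down. By this rule 38.6% of all genes were called from E40 to E50, 16.8% higher and 21.8% lower, so that such calls were common between these stages. DLX1 had a log2 fold change of -2.12 (SE 0.64) and an adjusted p of 0.0317 in limma. DLX3 had 2.78 (SE 0.52), with an adjusted p of 0.0124, and DLX4 had 2.89 (SE 0.61), with an adjusted p of 0.0130. Over all genes tested the median was 0.55. DLX2 had a log2 fold change of 0.067 (SE 0.45) and an adjusted p of 0.908, and its sign turned with the scaling, to -0.58 when each library was scaled by its median ratio to the geometric mean of all libraries. With that scaling, which brought the median of all genes to -0.09, DLX1 was at -2.77, DLX3 at 2.12 and DLX4 at 2.24, with limma adjusted p of 0.0361, 0.0108 and 0.0208. The split of higher and lower calls over all genes moved from 3296 and 4284 to 2392 and 4878, or 12.2% higher and 24.9% lower of 37.1% called.

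The same 3 genes passed without E60 library 1, with limma adjusted p of 0.000154 for DLX1, 0.000196 for DLX3 and 0.000260 for DLX4, where 54.6% of 19493 genes were called, 30.5% higher and 24.2% lower. Left out in turn, E40 library 1, E50 library 2 or E50 library 3 each took the count of DLX genes called to 0. Those fits called 209 of 19115, 58 of 19553 and 58 of 19547 genes, so that the loss took in most calls over all genes. DLX1 was called in 3 of the 9 fits and lost its call when any 1 of the E40 or E50 libraries was left out, with limma adjusted p of 0.0550 to 0.108, while DLX3 and DLX4 were each called in 6 of 9. The fits with 1 library left out gave log2 fold changes that stayed between -2.31 and -1.95 for DLX1, between 2.46 and 2.94 for DLX3 and between 2.52 and 3.09 for DLX4. The highest limma adjusted p over the 9 libraries left out was 0.108 for DLX1 and 0.0541 for DLX3 and DLX4. Pooled reads gave a ratio of E50 to E40 rates of 0.234 for DLX1 (95% exact interval 0.206 to 0.267), 1.02 for DLX2 (0.756 to 1.41), 6.64 for DLX3 (4.45 to 10.4) and 7.38 for DLX4 (3.37 to 20.2), intervals that cover counting error only.

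From the early to the late bell stage, none of the 4 members was called over 9 libraries by limma, and 0 of 4 had an unadjusted p under 0.05. Limma-voom on the recovered reads also called 0 of 4. Of all genes, 0.0714% were called (10 higher and 4 lower, or 69 and 12 with median-ratio scaling), and 5923 had an unadjusted p under 0.05. The log2 fold changes were 0.62 for DLX1, -0.12 for DLX2, -0.55 for DLX3 and -1.03 for DLX4, beside a median of all genes of -0.64. Without E60 library 1, 3 of the 4 members were called and 59.1% of all genes were, 20.0% higher and 39.1% lower. DLX1 was then higher at E60 by 1.47 on the log2 scale (SE 0.28, limma adjusted p 0.00233), DLX3 lower by 1.06 (SE 0.39, adjusted p 0.0405) and DLX4 lower by 1.65 (SE 0.42, adjusted p 0.00929). In this fit the E50 libraries were all deep and the E60 libraries all shallow, so that stage and set cannot be told apart. With median-ratio scaling of these 8 libraries DLX1 was called at 2.54 (limma adjusted p 0.000416, beside 38.2% of all genes called and 25.4% called higher), while DLX3 stood at 0.011 and DLX4 at -0.59. With that scaling neither DLX3 nor DLX4 was called. DLX2 stood at 0.99 (limma adjusted p 0.0428) and missed a call only by the fold change threshold. The unscaled median of all genes without E60 library 1 was -0.94.

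**Figure D3:**
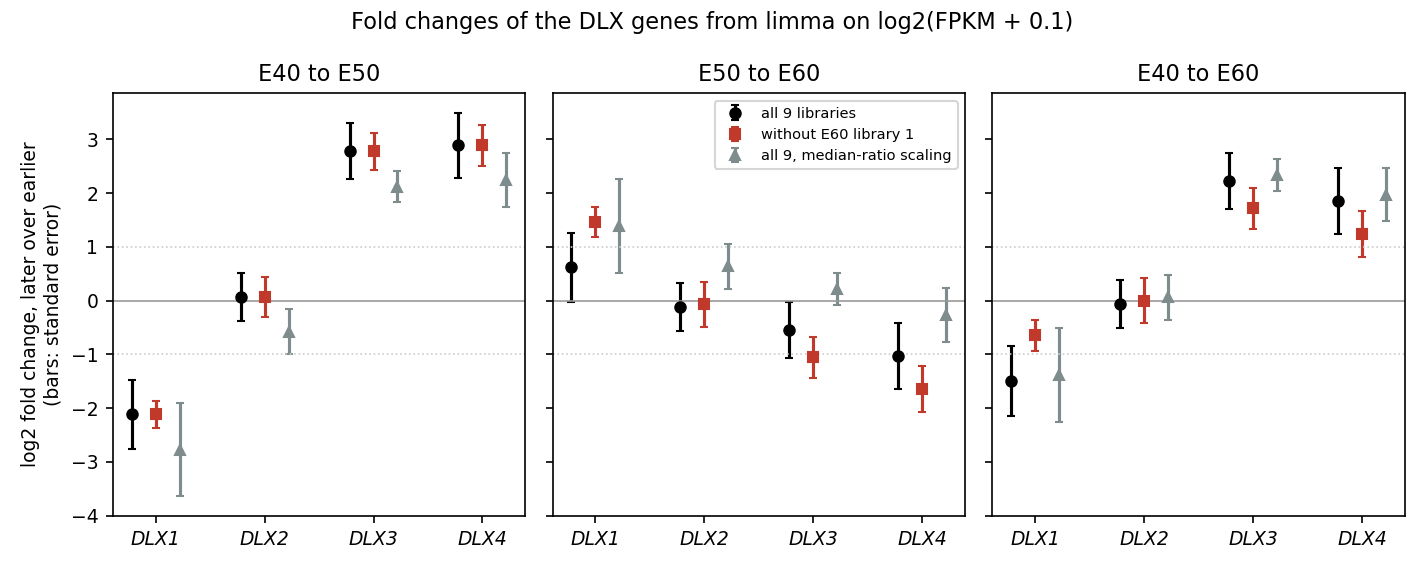
Log2 fold change (later stage over earlier, with its standard error as bars) of DLX1 to DLX4 from limma on log2(FPKM + 0.1), for all 9 libraries, without E60 library 1 and with median-ratio scaling. From E40 to E50 the estimates for DLX1, DLX3 and DLX4 share a sign with and without scaling. Leaving out E60 library 1 cannot alter the fold change of that step. From E50 to E60 the estimates part for DLX3.

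The plot of fold changes shows DLX1, DLX3 and DLX4 beyond 1 on the log2 scale from E40 to E50, with and without scaling. Without E60 library 1 the fold changes of this step are those over 9 libraries, since the step holds no E60 library. Fold changes from E50 to E60 moved with the libraries and the scaling used.

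The comparison of E40 with E60 spans the whole period and, within the shallow set, holds the set constant. Over 9 libraries limma called 0 of 4 members, although 3 of 4 had an unadjusted p under 0.05, and limma-voom called 0 of 4. By limma over 9 libraries, 3520 of all 19618 genes had an unadjusted p under 0.05. Of all genes 1.8% were called, 130 higher and 224 lower, and with median-ratio scaling 403 and 317. DLX3 had a log2 fold change of 2.22 (adjusted p 0.0761 from limma), DLX4 of 1.85 (adjusted p 0.190), DLX1 of -1.50 (adjusted p 0.268) and DLX2 of -0.056 (adjusted p 0.963). DLX3 was called without E60 library 1 (1.72, SE 0.39, limma adjusted p 0.0392), where 6.06% of all genes were called and 1.37% higher. It was called without E60 library 2 (2.67, limma adjusted p 0.0190), where 1173 of 19184 genes were called and 454 of those were higher. It was also called with median-ratio scaling (2.34, limma adjusted p 0.00516), where 3.67% were called and 2.05% higher. DLX4 was not, with 1.24 and an adjusted p of 0.119 without E60 library 1 in limma.

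Within the sets the direction of 3 members was the same. In the shallow set (3 E40 and 2 E60 libraries), the log2 difference of E60 from E40 was 1.72 for DLX3, 1.24 for DLX4, -0.65 for DLX1 and 0.0011 for DLX2. In the deep set (3 E50 libraries and E60 library 1), the difference of E60 from E50 was 0.46 for DLX3, 0.19 for DLX4, -1.08 for DLX1 and -0.24 for DLX2. DLX3 and DLX4 were thus higher and DLX1 lower at E60 in both sets, each with no overlap of libraries, while DLX2 overlapped in both. Of all 19618 genes, 3.29% were higher and 12.4% lower at E60 in both sets with no overlap. The earlier stage was E40 in the shallow set and E50 in the deep set, so that these are different steps.

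Fitted alone with limma, the shallow set called none of the 4 members and 1.3% of 18426 genes. In that limma fit 1 of 4 members (DLX3, adjusted p 0.145) and 3401 of the 18426 genes had an unadjusted p under 0.05. The deep set called DLX1 (SE 0.25, limma adjusted p 0.00191), with 5.74% of 14499 genes called and 2.88% lower, under the assumption that the lone E60 library varies like the E50 libraries. DLX1 therefore stood below E50 in E60 library 1 and above it in E60 libraries 2 and 3, and no direction of DLX1 from E50 to E60 holds for all libraries. Less the median of all genes, the shallow difference of DLX1 was -0.18 and the deep one -1.01, and those of DLX3 were 2.18 and 0.53. In pooled reads DLX3 at E60 was 3.34 times its E40 rate in the shallow set (95% exact interval 2.09 to 5.53) and 1.36 times its E50 rate in the deep set (1.26 to 1.46). For DLX4 these ratios were 2.29 (0.811 to 7.33) and 1.14 (0.980 to 1.32), with intervals that include no change.

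The linked pairs were compared by the ratio of their members. DLX1 exceeded DLX2 in 9 of 9 libraries, by a ratio of FPKM of 14.2, 6.85 and 7.38 at E40, 1.94, 1.74 and 2.22 at E50, and 1.08, 8.07 and 4.03 at E60. The ratio of E60 library 1 had a 95% exact counting interval of 0.873 to 1.34, so that the levels of DLX1 and DLX2 were not told apart there. The E40 ratios did not overlap the E50 ratios. Mean log2 ratios were 3.14 at E40, 0.96 at E50 and 1.70 at E60, and an exact permutation test of the 3 stages over 1680 arrangements gave p = 0.114. The exact permutation p was 0.0214 without E60 library 1 and 0.0357 without E60 library 2, each over 560 arrangements, so that the call rests on which E60 libraries enter. The ratio also split by depth set. Without E60 library 1 only the E50 libraries were deep, so that this test cannot tell stage from set. Of the 3 pair ratios this was the 1 tested, so the p is not adjusted, since a ratio was left untested where a gene was at the floor throughout a stage or had no measured level.

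DLX3 exceeded DLX4 in 9 of 9 libraries as well, with ratios of FPKM of 1.26, 5.65 and 2.30 at E40, 2.37, 2.40 and 1.97 at E50, and 2.69, 2.15 and 5.44 at E60. No stage stood apart. The E40 ratios rest on 1 to 3 DLX4 reads, with 95% exact counting intervals as wide as 0.783 to 248 in library 2, and were left untested. The deep libraries set the ratio more closely, between 1.97 and 2.69.

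**Figure D4:**
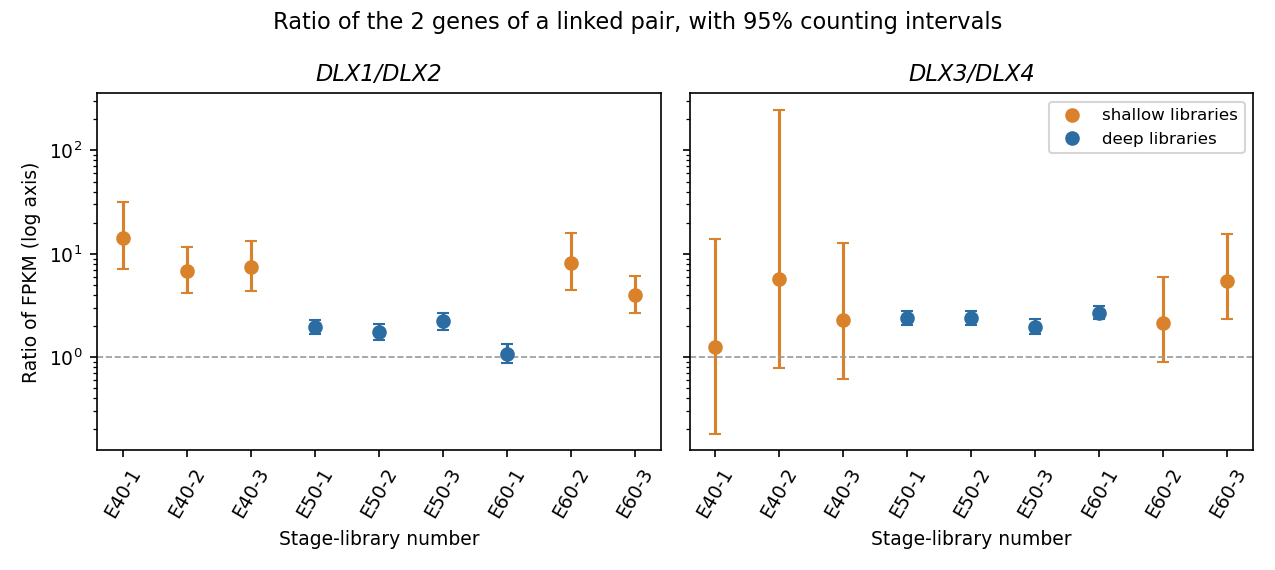
Ratio of FPKM within a linked pair (log axis) in each library, with 95% exact counting intervals as bars, coloured by depth set. DLX1/DLX2 lies between 6.85 and 14.2 at E40 and between 1.74 and 2.22 at E50, while DLX3/DLX4 lies between 1.26 and 5.65 in all 9 libraries with wide intervals at E40.

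The plot of pair ratios thus shows ratios of DLX1 to DLX2 that were higher in the 5 shallow than in the 4 deep libraries, and ratios of DLX3 to DLX4 that were on both sides of the deep band in the shallow ones. Measured as the root mean square difference between profiles of log2(FPKM + 0.1), each centred on its own mean over the 9 libraries, DLX3 and DLX4 were the most alike at 0.616. DLX1 and DLX2 differed by 1.17, DLX2 from DLX3 by 1.29 and from DLX4 by 1.44, and DLX1 from DLX3 by 2.40 and from DLX4 by 2.44. The genes nearest to each member by this measure over 9 libraries, which share the depth sets, were TESK2 (0.153) and MAPT (0.187) for DLX1, SAMD4B (0.191) and ZFAT (0.201) for DLX2, FBN2 (0.235) and SNCAIP (0.241) for DLX3, and CTR1 (0.292) and ABCB1 (0.331) for DLX4. The nearest distance was smaller for DLX1 than for DLX4, whose E40 values rest on few reads. Each member had nearer profiles outside the family than within it. With a few members inside and all other genes searched outside, this was likely in advance and says nothing about the family.

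Genes that act with the DLX family were taken from lists of known partners, inputs and targets, and AMTN, DMP1, RUNX2, TFAP2A, TFAP2B and HAND2 are named after their values were seen. Of 10 tooth transcription factors, 9 were tested, and from E40 to E50 limma called 2 higher and 1 lower, near the 38.6% called of all genes, with a list median of 0.45 on the log2 scale beside 0.55 for all genes. BARX1, a molar mesenchyme factor, rose by 1.48 (limma adjusted p 0.0155) and LHX8, a dental mesenchyme factor, by 1.45 (adjusted p 0.0489), but neither passed with median-ratio scaling (0.82 and 0.78). TFAP2A, a factor of neural crest and skin, was the gene that fell, by 2.25 (limma adjusted p 0.0124). From E50 to E60 and from E40 to E60 none of the 9 was called over 9 libraries without scaling, and with median-ratio scaling 1 fell in each step (BARX1 by 1.22 and TFAP2B, a factor of neural crest, by 2.05, with limma adjusted p of 0.0436 and 0.00749). Without E60 library 1, 6 of 9 fell from E50 to E60, where 39.1% of all genes were called lower, with a list median of -1.84 beside -0.94 for all genes. With median-ratio scaling of these 8 libraries 2 of 9 fell and 1 rose, where 38.2% of all genes were called, with a list median of -0.77. From E40 to E60, unscaled and without E60 library 1, 3 of 9 fell, where 1181 of 19493 genes were called and 913 of those were lower. With scaling of the 8 libraries 1 of 9 fell in that step, where 955 genes were called and 465 of those were lower.

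Of 12 genes of endothelin signalling and the mandibular arch, the input to DLX5 and DLX6, 10 had a row and 7 were tested. From E40 to E50 limma called 1 higher (HAND2, a lower jaw transcription factor, at 1.97, adjusted p 0.0479) and 1 lower, where 38.6% of all genes were called, with a list median of 0.65 beside 0.55 for all genes. With median-ratio scaling HAND2 was not called (1.34) and the list median was -0.011. None was called in the other comparisons over 9 libraries, with or without that scaling. Without E60 library 1, 2 of 7 were called higher and 1 lower from E40 to E50, where 54.6% of all genes were called. From E50 to E60, 1 was then higher and 4 lower, where 59.1% of all genes were called and 39.1% lower. With scaling as well, 1 was higher and 1 lower in that step, where 38.2% of all genes were called. EDNRA, the endothelin receptor, was at 8.28, 13.7 and 6.71 FPKM at E40, 32.3, 38.6 and 39.4 at E50, and 32.4, 0.804 and 4.42 at E60, with a log2 fold change of 1.99 and a limma adjusted p of 0.147 from E40 to E50. Without E60 library 1 it passed upward (adjusted p 0.0128 from limma) and then fell by 4.18 from E50 to E60 (adjusted p 0.000577). MEF2C, a transcription factor that responds to endothelin, was at 1.15 (adjusted p 0.236) and ECE1, the enzyme that activates endothelin, at 0.65 (adjusted p 0.269) from E40 to E50.

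Of the enamel genes, some of which DLX3 is known to regulate, 3 of 5 tested were called higher from E50 to E60 by limma, where 0.0714% of all genes were called, and the list median was 9.10. AMBN rose by 10.31 on the log2 scale (limma adjusted p 0.000102), AMEL, for amelogenin, by 9.10 (adjusted p 0.000637) and ENAM, for enamelin, by 10.85 (adjusted p 9.73e-05), also without E60 library 1 (9.78, 8.40 and 10.26). DLX3 was called higher from E40 to E50, a step in which AMBN (-0.29) and AMEL (-1.05) were not called and ENAM fell by 2.68 (limma adjusted p 0.0130), and 1 of 5, AMTN for the late enamel protein amelotin, rose by 5.27 (adjusted p 0.0171). With median-ratio scaling AMEL was also called lower in that step, at -1.70 (limma adjusted p 0.0223), and without E60 library 1 AMTN fell by 3.60 from E50 to E60 (limma adjusted p 0.0465). Of 8 bone and dentin genes tested, limma called 1 lower from E40 to E50 (RUNX2, a bone master factor, at -2.58, adjusted p 0.0133), 1 higher from E50 to E60 (DMP1, for a dentin and bone matrix protein, at 4.79, adjusted p 0.0373) and 2 higher from E40 to E60. The latter were DMP1 at 4.81 and DSPP, for the main dentin matrix phosphoprotein, at 8.32 (limma adjusted p 0.00677 for each). The shares of all genes called in these steps were 38.6, 0.0714 and 1.8%. With median-ratio scaling the counts were 2 lower, 3 higher and 3 higher, where 37.1%, 81 of 19618 and 3.67% of all genes were called. Without E60 library 1 they were 1 higher and 1 lower, 3 higher and 2 higher. The shares of all genes called were then 54.6, 59.1 and 6.06%, with 20.0% called higher from E50 to E60. With both, 5 of 8 were higher from E50 to E60, where 38.2% of all genes were called and 25.4% called higher. COL1A1, the main bone and dentin collagen, was at 0.44 (adjusted p 0.493) and SPP1, for osteopontin, at 0.43 (adjusted p 0.381) from E40 to E50.

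In the forebrain DLX1 and DLX2 switch on genes of GABA neurons, of which 2 of 6 listed passed the filter on low values. GAD1, the GABA-making enzyme, had a mean of 0.337 FPKM over the 9 libraries and was not tested.

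Markers of the tissues in a germ moved beside the DLX genes. Of 8 dental epithelium markers 7 were present, with CDH1 listed at 0, and their summed FPKM was 3400 to 4886 at E40, 2418 to 3380 at E50, 3293 in E60 library 1 and 1363 and 4032 in the other E60 libraries. The 7 dental mesenchyme markers, all present, summed to 1423 to 2180 at E40, 5705 to 6203 at E50, 6523 in E60 library 1 and 1332 and 2634 in the others. These sums were higher in every deep than in every shallow library. So were DLX3, DLX4 and the red blood cell and endothelium and leukocyte sums given below. In E60 libraries 2 and 3 DLX3 and DLX4 were above all E40 libraries, with DLX4 resting on 7 and 6 reads. Of the mesenchyme sums of these E60 libraries, 1332 was below and 2634 above all E40 sums. Of 8 skeletal muscle markers 6 were present, with CKM listed at 0, and they summed to 67.3 to 93.1 at E40 and 4.63 to 11.9 in the other libraries, high and low where DLX1 was high and low from E40 to E50 but not in E60 libraries 2 and 3.

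Red blood cell markers (7 of 7 present) summed to 227 to 394 FPKM at E40, 729 to 1029 at E50, 675 in E60 library 1 and 98.9 and 349 in the others, and endothelium and leukocyte markers (4 of 6) to 18.0 to 20.6, 48.2 to 52.1, 57.4, and 16.1 and 27.9. Cartilage markers (6 of 6) summed to 15.1 to 20.4 at E40, 24.6 to 32.3 at E50, 39.3 in E60 library 1 and 18.1 and 26.1 in the others, and neuron markers (4 of 6) to 2.89 to 8.32, 6.73 to 8.45, 14.6, and 5.46 and 6.51. The part of these cell types in the DLX levels was not tested.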

How the data were processed

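Total RNA of Dm3 germs was sequenced, and the 9 libraries were grouped into E40, E50 and E60 by their labels. The authors depleted rRNA, made directional libraries, aligned paired-end reads with TopHat to the pig genome (Sscrofa10.2 in the submitters' processing notes) and deposited FPKM per gene for each library. The counter and its use of strand are not given in the sources used here. From these, whole reads were recovered for 28963 of 28963 genes above 0, within 0.05 of a whole number. The lowest read numbers that fitted were taken. For genes above 0 in few libraries these need not be the true numbers, so that the share recovered is no measure of accuracy. Genes that reached an FPKM of 1 in 2 or more libraries entered limma 3.58.1 (R 4.3.3) on log2(FPKM + 0.1), with a mean-variance trend, 1 coefficient per stage and Benjamini-Hochberg adjustment over all genes tested, and the DLX1/DLX2 ratio was tested with an exact permutation test of the F statistic, which has no direction. Fold changes on this scale understate the change of low genes. Counting intervals are exact (Clopper-Pearson, 95%). Scripts were tested on simulated data.

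Named were the DLX genes, the 2 genes (symbol not a LOC number) with the profile most like each member, and the 3 most abundant genes of each list, with exceptions given in the text. Results of some listed genes are not reported here. Members and lists were chosen with earlier results of these data known. Symbols were matched directly or, for some genes such as HAND2, ALX4, SP7 and AHSP, through their gene IDs. RefSeq positions (Sscrofa11.1) gave only which genes neighbour each other. Alternatives were other pseudocounts (1 and 0.01), no filter, median-ratio scaling, a replicate block, fits of the compared stages alone, limma-voom on recovered reads, and each library left out. Fits within a depth set, and further settings without E60 library 1, were added after seeing the data. Other steps ran in Python 3.11.15 with scipy 1.17.1, pandas 2.3.3, numpy 2.4.6 and matplotlib 3.10.9.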

Additional observations from a re-analysis of the deposited data

How the results depend on the processing

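Over 9 libraries the DLX calls rested on single libraries. With each library left out in turn, limma called 0 to 3 DLX genes from E40 to E50, 0 to 3 from E50 to E60 and 0 to 1 from E40 to E60, and of all genes 58 to 10650, 4 to 11529 and 128 to 1181. From E50 to E60 the DLX count was 1 without E60 library 1 with median-ratio scaling, 3 there with a replicate block, 3 there with limma-voom, and 1 within the deep libraries. From E40 to E60 it was 1 with median-ratio scaling, and 1 without E60 library 1 with that scaling or with limma-voom. Of all genes from E40 to E50, limma-voom without E60 library 1 called 12129. From E50 to E60, 27 were called with a pseudocount of 1, 81 with median-ratio scaling, 4 with a replicate block, 61 with limma-voom, 6 with only the stages compared, 832 within the deep libraries, and, without E60 library 1, 7448 with scaling, 11744 with a block and 13291 with limma-voom. From E40 to E60 these were 696 with a pseudocount of 1, 221 with 0.01, 720 with scaling, 82 with a block, 27 with only the stages compared, and, without E60 library 1, 955 with scaling and 1187 with limma-voom. The DLX1/DLX2 log2 ratio of E50 less E40 was -2.18, a value that leaving out an E60 library cannot alter. It ranged from -2.37 to -1.85 with each E40 or E50 library left out in turn. The exact permutation p of the 3 stages was 0.0214 without E60 library 1 and 0.0357 without E60 library 2.

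The correlation of same-numbered libraries' deviations from their stage means ran from -0.515 to 0.109, and that of differently numbered libraries from -0.378 to 0.423. Deviations at E60 include the split by depth set, so that a pairing by replicate number was neither shown nor excluded. With the replicate block, 5104 genes were called from E40 to E50, DLX1 was not called (limma adjusted p 0.0581), DLX3 and DLX4 were (0.0289), and the exact permutation p of the DLX1/DLX2 ratio was 0.222 over 216 arrangements.

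The sign of the log2 fold change turned in the following settings. DLX1 from E50 to E60 was -1.08 within the deep libraries. DLX2 from E40 to E50 was -0.58 with scaling, -0.16 without E40 library 1, -0.13 without E50 library 1, and -0.56 without E60 library 1 with scaling. DLX2 from E50 to E60 was 0.64 with scaling, 0.075 without E50 library 1, 0.092 without E60 library 2, and, without E60 library 1, 0.99 with scaling and 0.0024 with limma-voom. DLX2 from E40 to E60 was 0.058 with scaling, 0.20 without E40 library 2, 0.0011 without E60 library 1 and within the shallow libraries, 0.16 without E60 library 2, and, without E60 library 1, 0.43 with scaling and 0.016 with limma-voom. From E50 to E60 DLX3 was 0.22 with scaling, 0.011 without E60 library 1 with scaling and 0.46 within the deep libraries, where DLX4 was 0.19. With each library left out, DLX2 ran from -0.16 to 0.32, from -0.40 to 0.092 and from -0.33 to 0.20 in the 3 comparisons. The cause was not tested. Depth limits DLX4 at E40 (1 to 3 reads) and DLX2 in the shallow libraries (9 to 33 reads).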

Other observations

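The genes beside the DLX pairs in the RefSeq order of Sscrofa11.1 were chosen by position, with their values known. METAP1D, a mitochondrial methionine aminopeptidase beside DLX1, was at 44.4, 36.1 and 32.0 FPKM at E40, 8.27, 8.32 and 9.46 at E50, and 8.33, 11.1 and 9.96 at E60. It fell by 2.09 on the log2 scale from E40 to E50 (limma adjusted p 0.00985), beside -2.12 for DLX1, but unlike DLX1 it was low in all 3 E60 libraries. HAT1, a histone acetyltransferase on the far side of METAP1D, was at 25.6, 18.8 and 27.0 FPKM at E40, 72.1, 93.4 and 98.7 at E50, and 83.2, 12.1 and 17.9 at E60, and rose by 1.89 from E40 to E50 (limma adjusted p 0.0419). The integrin genes ITGA6, near DLX2, and ITGA3, near DLX3, had log2 fold changes of 0.53 (adjusted p 0.350) and 0.57 (adjusted p 0.430) from E40 to E50 in limma.

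LOC102167654, a noncoding RNA that RefSeq places near DLX6, was at 856, 785 and 565 FPKM at E40, 1.61, 0.158 and 0.0915 at E50, and 0.163, 1235 and 882 in E60 libraries 1, 2 and 3. All shallow libraries were thus at least 565 FPKM and all deep ones at most 1.61 FPKM. On the log2 scale E50 differed from E40 by -10.69 (limma adjusted p 0.0183), and its level in E60 libraries split by set and not by stage.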
